A study of Saccharomyces cerevisiae with 96 samples.

Results

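The genes of Saccharomyces cerevisiae whose standard names are MRPL, MRPS or RSM followed by a number encode proteins of the mitochondrial ribosome. They were taken as every mRNA entry of the count tables whose systematic name carried such a symbol in the RefSeq annotation, which gave 54 genes of 6598 mRNA entries, 5914 of which matched a RefSeq locus. The 54 comprised 20 proteins of the small subunit and 34 of the large subunit, and they lay on 14 nuclear chromosomes. By the families of their proteins, 33 belong to families shared with bacterial ribosomes (12 small, 21 large) and 21 are specific to mitochondria (8 small, 13 large).

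The study asked which RNAs carry nicotinamide adenine dinucleotide (NAD) as a 5′ cap in budding yeast, and what happens when the enzymes that remove this cap are missing. All strains were in the haploid laboratory background BY4742 and were grown in YPD, a rich glucose medium, at 30 °C to the same optical density. The mutants were npy1Δ, dxo1Δ, rai1Δ, dxo1Δ npy1Δ, dxo1Δ rai1Δ, rai1Δ npy1Δ and the triple mutant dxo1Δ rai1Δ npy1Δ, and the reference was the wild type (WT). Npy1 is a Nudix hydrolase that cleaves NAD between its phosphates, and Dxo1 and Rai1 belong to the DXO family, which removes NAD from RNA whole. Each strain was measured in 3 biological replicates by NAD captureSeq on unfragmented RNA (48 libraries) and by transcriptome sequencing (24 libraries). In NAD captureSeq the enzyme ADP-ribosyl cyclase (ADPRC) attaches a clickable alkyne to NAD, so that NAD-RNA can be biotinylated, pulled down and sequenced. Each strain therefore also has 3 −ADPRC control libraries, processed without the enzyme.

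The mitochondrial ribosome of yeast translates a handful of mitochondrially encoded membrane proteins of the respiratory chain and the ATP synthase, and one of its own proteins, Var1, is made there too. All its other proteins are encoded in the nucleus, made in the cytosol and imported, and many have no bacterial relative. Yeast cells fermenting glucose repress respiration, and mitochondrial ribosomal protein genes are known to respond to carbon source less strongly than the enzymes of respiration do. Transcription by RNA polymerase II can start with NAD in place of ATP, so an NAD cap requires a transcript whose first base is A. The first bases can be looked for as CAAG or TAAG, in which the capped base would be the A after the pyrimidine.

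CAAG or TAAG occurred on the coding strand in the 120 bases before the start codon of 43 of the 54 genes (79.6%), against 4323 of 6001 protein-coding genes of the RefSeq genome build R64 (72.0%). On either strand the shares were 90.7% of the 54 genes and 88.5% of all genes. The nearest match lay a median of 32 bases before the start codon, counted from the first A, with a range of 4 to 116 bases. A match is a description of the letters and not a mapped start site. The stretches below are from 8 members that the results return to, the most captured ones, RSM10, and MRPL22, which was not enriched in any strain. They are R64 sequence read 5′ to 3′ on the coding strand, with the nearest motif in capitals.
MRPS12: tgaagcaggccaaCAAGagccatgttgtcg
RSM10: aaaggaaaaaatgCAAGaaagggcatgaaa
MRPL33: cttttctagatatTAAGgataaagtatatc
MRPL38: tttgagatctggaTAAGccatattttctaa
MRPL22: aggagccgcatagCAAGtcagagaacctca
MRPL31: gctacccaagttaTAAGactccaatgtttg
MRPL51: cataaaccatgacTAAGtagatacacagac
MRPL8: gatttggctacgcCAAGgagaaaaaacggt
They lie at chrXIV:694814-694843 on the minus strand (MRPS12), chrIV:539702-539731 on the plus strand (RSM10), chrXIII:841842-841871 plus (MRPL33), chrXI:130595-130624 plus (MRPL38), chrXIV:304644-304673 minus (MRPL22), chrXI:185675-185704 minus (MRPL31), chrXVI:729745-729774 plus (MRPL51) and chrX:316499-316528 minus (MRPL8). The first A stood 7 bases before the start codon in MRPS12, 9 in MRPL31, 25 in MRPL38, 32 in MRPL51, 39 in MRPL8, 44 in MRPL22, 86 in MRPL33 and 87 in RSM10. The motifs lie before the start codon, while the last 9 bases printed for MRPS12 and the last 7 for MRPL31 are coding sequence. The 11 members without a match were MRPS8, MRPS18, RSM7, MRPS35, MRPL7, MRPL10, MRPL3, MRPL13, MRPL27, MRPL37 and MRPL44. In the capture data described next, members with it were enriched in a median of 7 strains and members without it in a median of 6 strains, and MRPL13 and MRPS18, which lack it, were enriched in all 8. The difference was not tested.

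Capture libraries held 470978 to 29300164 counted reads (median 4731919), of which mRNA made up 1.91% to 12.6% in +ADPRC libraries and 0.102% to 1.15% in −ADPRC libraries. Transcriptome libraries held 4926021 to 17733417 reads over 5′ regions, the windows around the translation start that were counted in both assays, and 23241152 to 43152924 reads over coding sequences. The deleted genes matched the labels where their 5′ regions could be read: NPY1 had 0 to 13 reads in strains without it and 32 to 51 in WT, and RAI1 had 0 or 1 read in strains without it and 7 to 15 in WT. DXO1 had 0 to 2 reads in strains without it, but also 0, 0 and 5 in WT, so the WT level does not check this label. The mutants that keep DXO1 (npy1Δ, rai1Δ and rai1Δ npy1Δ) had 7 to 22 reads of it. WT and npy1Δ were sequenced in the same run, for transcriptomes and for captures, and the other 6 mutants in other runs. A difference between those 6 strains and WT cannot be told apart from a difference between runs.

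NAD capture retained the mitochondrial ribosomal protein mRNAs above the −ADPRC background in most strains. Read counts were low, and the 54 genes together received 61 to 2513 reads in a +ADPRC library against 1 to 109 in a −ADPRC library. They took 0.203% to 0.366% of the mRNA reads with ADPRC and 0.040% to 0.291% without it. In npy1Δ this share averaged 0.260 ± 0.007% with ADPRC and 0.124 ± 0.032% without it, and in WT 0.294 ± 0.083% with ADPRC and 0.081 ± 0.047% without it (SD, n = 3 each). The smallest gap was in dxo1Δ rai1Δ, at 0.309 ± 0.023% with ADPRC and 0.217 ± 0.068% without it. In each of the 8 strains every +ADPRC library had a larger share than every −ADPRC library of that strain. The margin was narrow in rai1Δ npy1Δ, at 0.283% against 0.280%, the latter from 6 member reads. In dxo1Δ rai1Δ it was 0.293% against 0.291%.

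**Figure D1:**
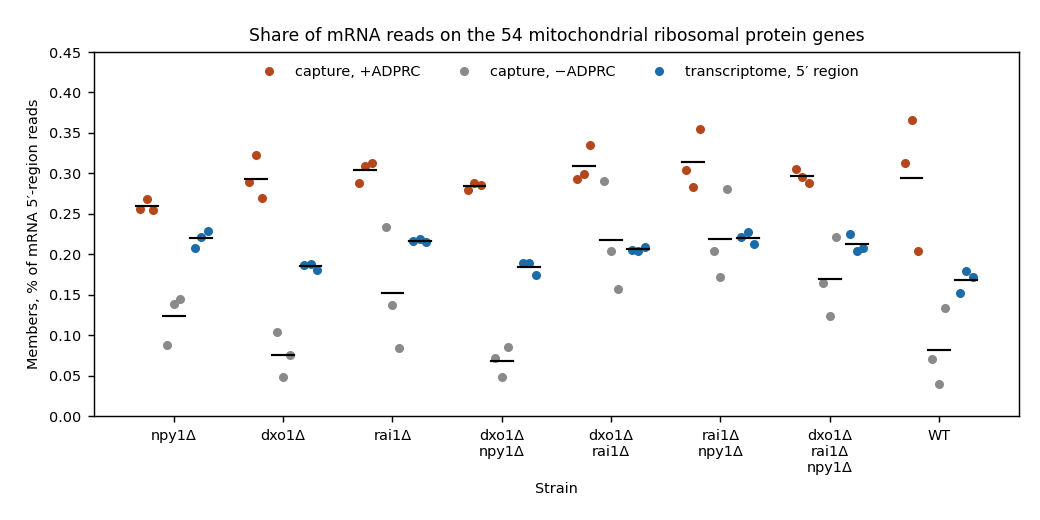
Share of mRNA reads (percent) that fell on the 54 mitochondrial ribosomal protein genes, by strain, with 1 point a library and the mean as a bar; +ADPRC libraries are drawn left of −ADPRC libraries, and transcriptome libraries stand beside them. The +ADPRC points run between 0.203% and 0.366%, and within each strain they lie above the −ADPRC points, narrowly in dxo1Δ rai1Δ and rai1Δ npy1Δ.

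Single genes were called enriched where the +ADPRC level exceeded the −ADPRC level by more than 0.5 on the log2 scale with an unadjusted p under 0.05, the rule of the study, in edgeR's quasi-likelihood test. In npy1Δ, 41 of the 54 genes were enriched, where 50.4% of all RNAs and 56.2% of the mRNA entries tested were. In the triple mutant it was 44 of 54, beside 56.5% of all RNAs and 62.6% of mRNA entries, and in dxo1Δ rai1Δ it was 50 of 54, beside 70.5% and 77.6%. In these 3 strains all 54 genes passed the minimum mean count of 1. Because control reads were few, a gene passed mostly through its +ADPRC libraries, so these counts describe the capture and do not set the genes apart from other mRNAs.
In dxo1Δ 50 of the 54 genes passed the minimum and all 50 were enriched, beside 87.3% of all RNAs and 96.2% of mRNA entries. In rai1Δ 51 passed and 43 were enriched, beside 61.2% and 68.3%, and in dxo1Δ npy1Δ 53 passed and 43 were enriched, beside 61.5% and 68.1%. In rai1Δ npy1Δ, whose +ADPRC libraries held 69658 to 100261 mRNA reads, 37 passed and 36 were enriched, beside 83.2% and 94.1%. WT, at 29995 to 204660 mRNA reads in its +ADPRC libraries, had 27 genes that passed and 15 enriched, beside 47.0% of all RNAs and 55.5% of mRNA entries.
No member was depleted, where 9.46% of all RNAs were in npy1Δ, 7.64% in dxo1Δ, 7.66% in rai1Δ, 9.13% in dxo1Δ npy1Δ, 8.04% in dxo1Δ rai1Δ, 7.89% in rai1Δ npy1Δ, 8.68% in the triple mutant and 4.39% in WT. These shares include RNAs that are not mRNAs, and a share over mRNA entries was not computed. With so few control reads a member could hardly be called depleted, so no conclusion is drawn from this.
With p-values adjusted by the Benjamini-Hochberg method over all RNAs tested, the enriched members numbered 34 in npy1Δ (44.7% of all RNAs), 50 in dxo1Δ (87.3%), 39 in rai1Δ (56.0%), 42 in dxo1Δ npy1Δ (57.2%), 50 in dxo1Δ rai1Δ (68.0%), 36 in rai1Δ npy1Δ (83.1%), 40 in the triple mutant (53.1%) and 10 in WT (36.1%). The other nuclear mitochondrial ribosomal protein genes, 23 with names of another form such as MRP7 or MRP20, gave 17 enriched in npy1Δ, 19 in the triple mutant and 10 in WT.
The counts turned on few libraries in npy1Δ, rai1Δ and WT. In npy1Δ 23 members were left without +ADPRC replicate 1 and 26 without replicate 3, and in rai1Δ 25 without +ADPRC replicate 1, 9 without replicate 2 and 24 without −ADPRC replicate 2. In WT 9 were left without +ADPRC replicate 1, 6 without replicate 2, and 9 and 7 without −ADPRC replicate 1 or 2. A stricter minimum (edgeR's filterByExpr) left 16 enriched members in npy1Δ, 18 in the triple mutant and 1 in WT.

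Enrichment was spread over the group rather than held by a few genes. Of the 54, 9 were enriched in all 8 strains, 16 in 7, 13 in 6, 7 in 5, 5 in 4 and 2 in 2 strains, MRPL44 in 1 strain and MRPL22 in none. The 9 were MRPS9, MRPS12, MRPS16, MRPS18 and RSM23 of the small subunit and MRPL33, MRPL38, MRPL13 and MRPL15 of the large subunit. At the adjusted p, MRPS16, MRPS18, MRPL33 and MRPL13 were enriched in all 8. The same count over strains was not made for all RNAs. In single strains 55.5% to 96.2% of the mRNA entries tested were enriched, so these counts do not set the members apart from other mRNAs.
Some members had no background read at all. MRPL1 had 501 reads in the 24 +ADPRC libraries, MRPL11 had 379 and MRPL50 had 271, and none of these 3 genes had a read in any of the 24 −ADPRC libraries. They were picked out here after their values were seen.

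**Figure D2:**
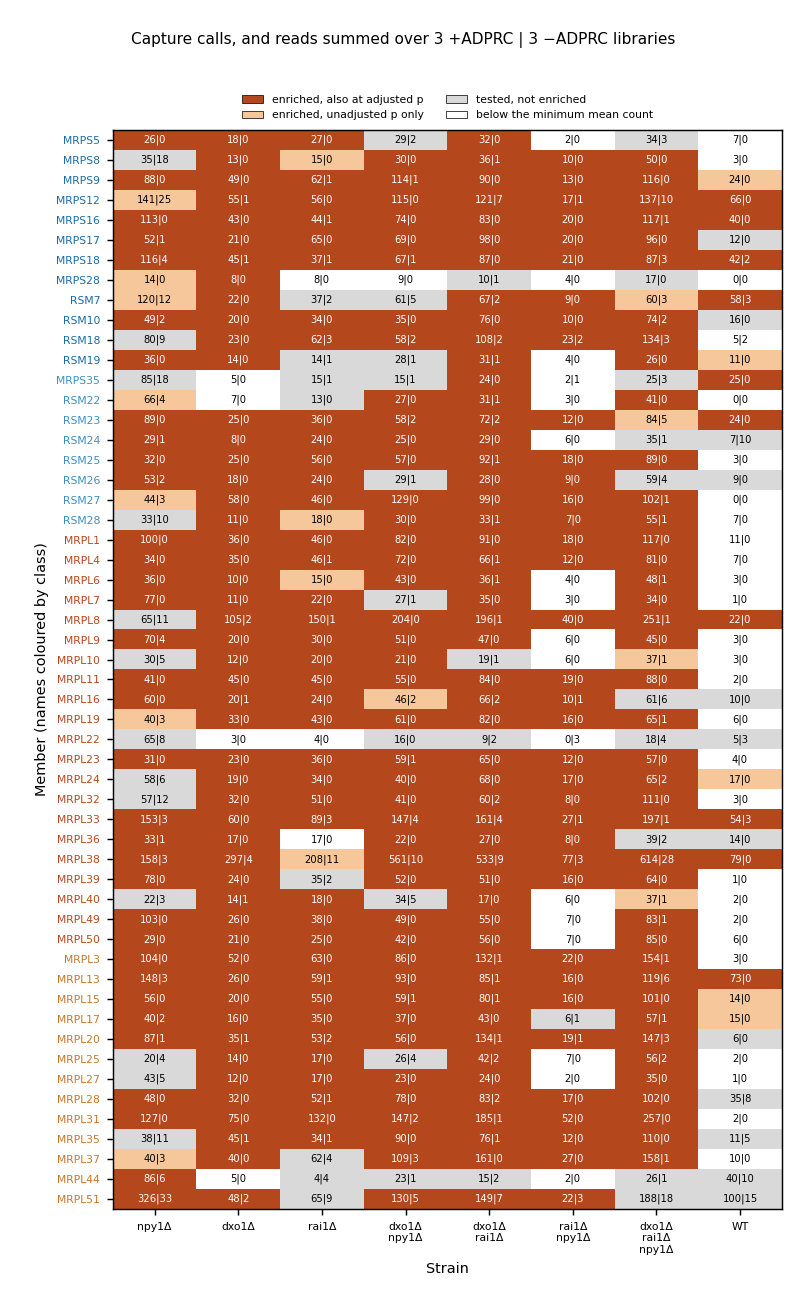
Capture calls of the 54 genes (rows, grouped by class) in the 8 strains (columns, mutants left of WT); each cell gives the reads summed over the 3 +ADPRC and the 3 −ADPRC libraries, and its shade says whether the gene was enriched also at the adjusted p, at the unadjusted p alone, tested and not enriched, or under the minimum mean count. The dxo1Δ and dxo1Δ rai1Δ columns hold 50 enriched genes each and the WT column 15.

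MRPL38, the mitochondrial relative of bacterial L14 at the interface of the subunits, received the most captured reads of the 54, 2527 over the 24 +ADPRC libraries. In triple-mutant libraries it had 116, 246 and 252 reads with ADPRC and 9, 1 and 18 without it (log2 fold change 1.73 ± 0.80, SE, adjusted p = 0.0499), a call that was lost without −ADPRC replicate 1 (1.65). In dxo1Δ it had 97, 125 and 75 reads with ADPRC and 1, 1 and 2 without it (5.25 ± 0.49, adjusted p = 5.1e-26). In WT it had 46, 33 and 0 reads with ADPRC and none in the 3 controls. The WT libraries thus overlapped at 0. Against a floor of 3 reads over the control group, the WT captures were at least 17.1-fold higher. Adjusted p-values here and below are from edgeR's quasi-likelihood test.
MRPS16, the bS16 protein of the small subunit, was low but almost free of background. Its +ADPRC counts were 45, 18 and 50 in npy1Δ with no read in the controls, at least 19.7-fold higher, and 20, 15 and 5 in WT with no read in the controls, at least 8.65-fold higher. In rai1Δ it had 34, 6 and 4 reads with ADPRC and 1, 0 and 0 without it, a 9.41-fold higher summed level with a 95% counting interval of 1.60 to 380-fold, a call lost without replicate 2 of either kind. Such intervals, and the floors, hold counting error alone, because the reads had no molecular identifiers.
MRPL33, of the L30 family, had 32, 81 and 84 reads with ADPRC in the triple mutant and 0, 0 and 1 without it (32.8-fold, interval 5.81 to 1300-fold). In WT it had 38, 14 and 2 reads with ADPRC and 0, 3 and 0 without it (11.7-fold, 3.79 to 58.4-fold). MRPS18, of the S11 family, had 54, 17 and 45 reads with ADPRC in npy1Δ and 0, 0 and 4 without it (3.76 ± 1.02 on the log2 scale), and in WT 21, 19 and 2 reads with ADPRC and 0, 2 and 0 without it (13.6-fold, 3.54 to 116-fold). WT +ADPRC replicate 3, with 2 reads of each gene, had no more reads than the highest WT control. The WT call of MRPL33 was lost without +ADPRC replicate 1 or 2 or −ADPRC replicate 1, that of MRPS18 without +ADPRC replicate 2, and that of MRPS18 in npy1Δ without +ADPRC replicate 3.
MRPS12, the relative of the decoding-centre protein S12, had more control reads in npy1Δ than in WT. It had 64, 27 and 50 reads with ADPRC in npy1Δ and 12, 10 and 3 without it (1.47 ± 0.67). WT had 52, 9 and 5 reads with ADPRC and none without it, at least 14.3-fold higher. RSM7, of the S7 family, had 37, 21 and 0 reads with ADPRC in WT and 0, 0 and 3 without it (12.5-fold, 4.08 to 62.6-fold), a call lost without replicate 1 or 2 of either kind and in DESeq2.
Among the mitochondria-specific proteins of the large subunit, MRPL31 had 50, 101 and 106 reads with ADPRC in the triple mutant and none without it, at least 14.2-fold higher. In npy1Δ it had 50, 34 and 43 reads with ADPRC and none without it, at least 22.1-fold higher. In WT it had 1, 1 and 0 reads with ADPRC, too few to be tested. MRPL8, of the conserved L17 family, had 41, 110 and 100 reads with ADPRC in the triple mutant and 0, 0 and 1 without it (41.7-fold, 7.42 to 1655-fold).
MRPL51 was the member with the most background, 92 reads over the −ADPRC libraries. It had 156, 67 and 103 reads with ADPRC in npy1Δ and 5, 25 and 3 without it (2.46 ± 0.60). WT had 74, 19 and 7 reads with ADPRC and 2, 8 and 5 without it, which overlapped and did not pass (1.72 ± 0.89, unadjusted p = 0.054). That call depended on the processing: MRPL51 in WT passed the unadjusted threshold with median-ratio scaling (2.14), total counts (2.39), DESeq2 (2.15) or filterByExpr (1.78), and without +ADPRC replicate 3 (2.04) or −ADPRC replicate 3 (2.22).

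RSM10, the relative of bacterial S10 and a transcript the study singled out, had 13, 19 and 17 reads with ADPRC in npy1Δ and 0, 0 and 2 without it (12.8-fold, interval 3.36 to 109-fold), a call lost without +ADPRC replicate 2 or 3. The triple mutant had 16, 25 and 33 reads with ADPRC and 0, 1 and 1 without it (6.15-fold, 1.64 to 51.7-fold), and in dxo1Δ rai1Δ 28, 22 and 26 reads with ADPRC and none without it, at least 4.83-fold higher. In rai1Δ it had 25, 6 and 3 reads with ADPRC and none without it, at least 2.42-fold higher, and the call was lost without +ADPRC replicate 2. In WT it had 16, 0 and 0 reads with ADPRC and none without it, and the call was not made (unadjusted p = 0.0777). RSM10 was thus enriched in all 7 mutants in the main fit, and its only WT reads came from replicate 1. With replicate number as a block in the fit, it did not pass in npy1Δ, dxo1Δ npy1Δ and the triple mutant. Its enrichment did not differ between npy1Δ and WT at the threshold in the test described next (−2.49 ± 2.59, unadjusted p = 0.338 in edgeR). Relative to its transcript it had 39.2 captured and 17.7 transcript reads per 1000000 mRNA reads in npy1Δ, against 26.1 captured and 61.4 transcript reads in WT, a difference that did not pass either (1.25 ± 0.67, adjusted p = 0.32).
At the other end, MRPL22, of the L22 family that lines the exit tunnel, had 36, 10 and 19 reads with ADPRC in npy1Δ and 4, 0 and 4 without it (1.85 ± 0.97, adjusted p = 0.117). The triple mutant had 2, 10 and 6 reads with ADPRC and 0, 0 and 4 without it (−0.42 ± 0.98). In WT it had 4, 0 and 1 reads with ADPRC and 0, 0 and 3 without it. Enrichment of this gene was not detectable at this depth.

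Whether the capture itself differed between npy1Δ and WT was tested in 2 ways, both within the run that the strains shared. The 2 strains also differed in genes that mark the carbon source. In the transcriptome 10 of 10 glucose-repressed genes were lower in npy1Δ (median log2 change −8.08). The part of this difference in the calls was not tested. The interaction of strain and ADPRC was tested in 53 members. Many of them had standard errors of 126 (MRPL50) to 10150 (MRPL49) on the log2 scale, too large for any call. They were thus not shown to be alike in the 2 strains. Of the 53, 1 passed: the enrichment of MRPS12 was lower in npy1Δ (−7.13 ± 2.22 on the log2 scale, adjusted p = 0.0227). Over all RNAs 7.1% were lower and 0.281% higher in npy1Δ by the same test. The size is not to be read as a fold, because MRPS12 had no read in any WT control, and the call was lost with median-ratio scaling, with total counts and in DESeq2. Such a scaling moved the median of all RNAs by 0.40 to 0.44. It was also lost without any of the 3 npy1Δ +ADPRC libraries, without npy1Δ −ADPRC replicate 1, without WT +ADPRC replicate 1 and without WT −ADPRC replicate 1 or 2, each of which left 0 members.
The second test set the captured level against the transcript level in the same 5′ region, with all 54 members tested and with 1.62% of all mRNAs higher and 3.67% lower in npy1Δ. MRPL31 was captured more in npy1Δ relative to its transcript (3.18 ± 0.85, adjusted p = 0.0225), at 91.7 captured and 101.0 transcript reads per 1000000 mRNA reads in npy1Δ, against 7.07 captured and 71.2 transcript reads in WT. MRPL44 (−2.52 ± 0.59, adjusted p = 0.00854), MRPL13 (−2.38 ± 0.51, adjusted p = 0.00373) and MRPL51 (−1.53 ± 0.41, adjusted p = 0.0225) were captured less in npy1Δ relative to their transcripts. MRPL13 had 105 captured and 27.4 transcript reads on that scale in npy1Δ, against 258 captured and 12.5 transcript reads in WT. All 4 belong to mitochondria-specific proteins of the large subunit, but no test compared the classes, and nothing is concluded about them from 4 calls. This test held no −ADPRC library, and none of the 4 passed the first test. There MRPL44 lay at 1.05 ± 1.6, MRPL51 at −0.23 ± 1.14 and MRPL13 at −4.10 ± 2.62 on the log2 scale, and MRPL31 had no usable standard error. MRPL51 had the most control reads of the members. The 5′ transcript rises of MRPL44 and MRPL51 were smaller in the coding sequence, as given below. Median-ratio scaling or TMM scaling moved the median of all mRNAs by 0.58 to 0.59, and without WT transcriptome replicate 2 the test called 2 members. MRPL44 was not called under TMM scaling (−2.03) or without WT +ADPRC replicate 1 (−1.61), MRPL31 without that library (2.50), and MRPL51 under TMM (−1.02) or median-ratio scaling (−0.99).
A member's captured share, divided by its transcript share, exceeded 1 in 28 to 36 of the 54 genes of a strain, beside 31.0% to 38.0% of all mRNAs. Its median was 1.15 to 1.43, while over all mRNAs it was 0.35 to 0.66. The captured and transcript shares followed each other weakly over the members (Spearman 0.14 to 0.30 over 54 genes that share libraries, a description). MRPL3 and MRPL10 were among the 3 highest ratios in 6 of the mutants, and MRPL51, MRPL13 and MRPL44 were the 3 highest in WT. Over the 5′ region, however, the mutant libraries held only 0 to 0.986 reads per 1000000 after TMM scaling for MRPL10 and 0.323 to 1.94 for MRPL3. Their ratios thus divide by few transcript reads. The coding sequence of MRPL10 was not low, at 43.5 reads per kilobase and 1000000 in WT.

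Transcript levels differed widely among the members. They are given as RPM, reads per 1000000 after TMM scaling, and per kilobase where genes are compared over their coding sequences. In WT, MRPS12 was highest at 238 ± 20 RPM per kilobase (SD, n = 3), before RSM7 at 123 ± 11, MRPL33 at 96.1 ± 4.5, RSM19, of the S19 family, at 93.2 ± 2.1 and MRPL38 at 68.5 ± 5.4. MRPL33 and RSM19 did not differ beyond their spread. The lowest were RSM22 at 4.76 ± 0.80, MRPL11, of the L10 family, at 7.40 ± 0.47, MRPL32 at 7.75 ± 1.39, MRPS8 at 13.5 ± 1.3 and MRPL3 at 15.9 ± 1.0, and MRPL11 and MRPL32 overlapped. The median of the 54 genes was 31.3 RPM per kilobase.

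Against WT, the mutants changed the transcripts of the mitochondrial ribosome in both directions. In npy1Δ 20 of the 54 genes rose and 9 fell (adjusted p under 0.05 over all RNAs, edgeR), where 35.6% of all RNAs rose and 34.5% fell. The triple mutant had 22 that rose and 11 that fell, where 40.6% of all RNAs rose and 36.8% fell. In dxo1Δ 11 rose and 17 fell, where 38.0% rose and 36.0% fell. Most RNAs changed in these comparisons: 70.1% of those tested rose or fell in npy1Δ, 74.1% in dxo1Δ, 76.6% in rai1Δ, 74.9% in dxo1Δ npy1Δ, 75.3% in dxo1Δ rai1Δ, 75.7% in rai1Δ npy1Δ and 77.4% in the triple mutant. The members' shares, 20.4 to 40.7% that rose, were near or below the background.
The other strains gave 22 risers and 12 fallers in rai1Δ (background 40.4% and 36.2%), 13 and 17 in dxo1Δ npy1Δ (38.2% and 36.7%), 18 and 15 in dxo1Δ rai1Δ (39.8% and 35.5%) and 18 and 13 in rai1Δ npy1Δ (39.3% and 36.4%). The median log2 change of the 54 genes ran between −0.14 in dxo1Δ and 0.24 in npy1Δ, and that of all RNAs between 0.03 and 0.14. All 7 comparisons share the same 3 WT libraries.

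The direction of the fallers depended on the scaling. Scaled by total counts instead of TMM, 46 to 52 of the 54 genes rose and 0 or 1 fell in each mutant, and the median of all RNAs lay between 1.50 and 1.91 on the log2 scale. The cytosolic signal recognition particle RNA SCR1 took 48.2 ± 1.1% of the WT 5′ reads (SD, n = 3) and 30.8% to 41.4% on average in the mutants. The share of mRNA was 10.6 ± 0.5% of the WT 5′ reads (SD, n = 3) and 23.7% to 28.4% on average in the mutants. Every change below is given relative to the bulk of the RNAs.
Genes that mark the carbon source followed the same split between mutants and WT. A list of 10 glucose-repressed genes fell in all 7 mutants, 10 of 10 each time, with a summed level of 11.6 to 23.5 RPM in the mutant libraries against 2322, 2123 and 2166 in WT. Of 6 glucose-induced genes 5 or 6 rose, at 2941 to 6762 against 1668 to 1976 in WT. Their part in the changes of the mitochondrial ribosome was not tested.

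By role, 8 of the 13 mitochondria-specific proteins of the large subunit rose in npy1Δ and 9 of 13 in the triple mutant, with 1 and 0 that fell. Over the 7 mutants 4 to 9 of the 13 rose, the fewest in dxo1Δ, and 0 to 2 fell. Of the 12 conserved small-subunit proteins 0 to 3 rose and 3 to 6 fell, with 3 each way in the triple mutant. Conserved large-subunit proteins were mixed (4 to 7 of 21 rose, 3 to 6 fell), as were the mitochondria-specific small-subunit proteins (2 to 4 of 8 rose, 2 or 3 fell). Among all RNAs 35.6% to 40.6% rose and 34.5% to 36.8% fell in a mutant. No test compared these classes with each other or with all RNAs. In the coding sequence 6 to 8 of the 13 mitochondria-specific large-subunit proteins rose and 3 or 4 fell. There 40.7% to 44.0% of all RNAs rose and 39.5% to 41.8% fell.

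**Figure D3:**
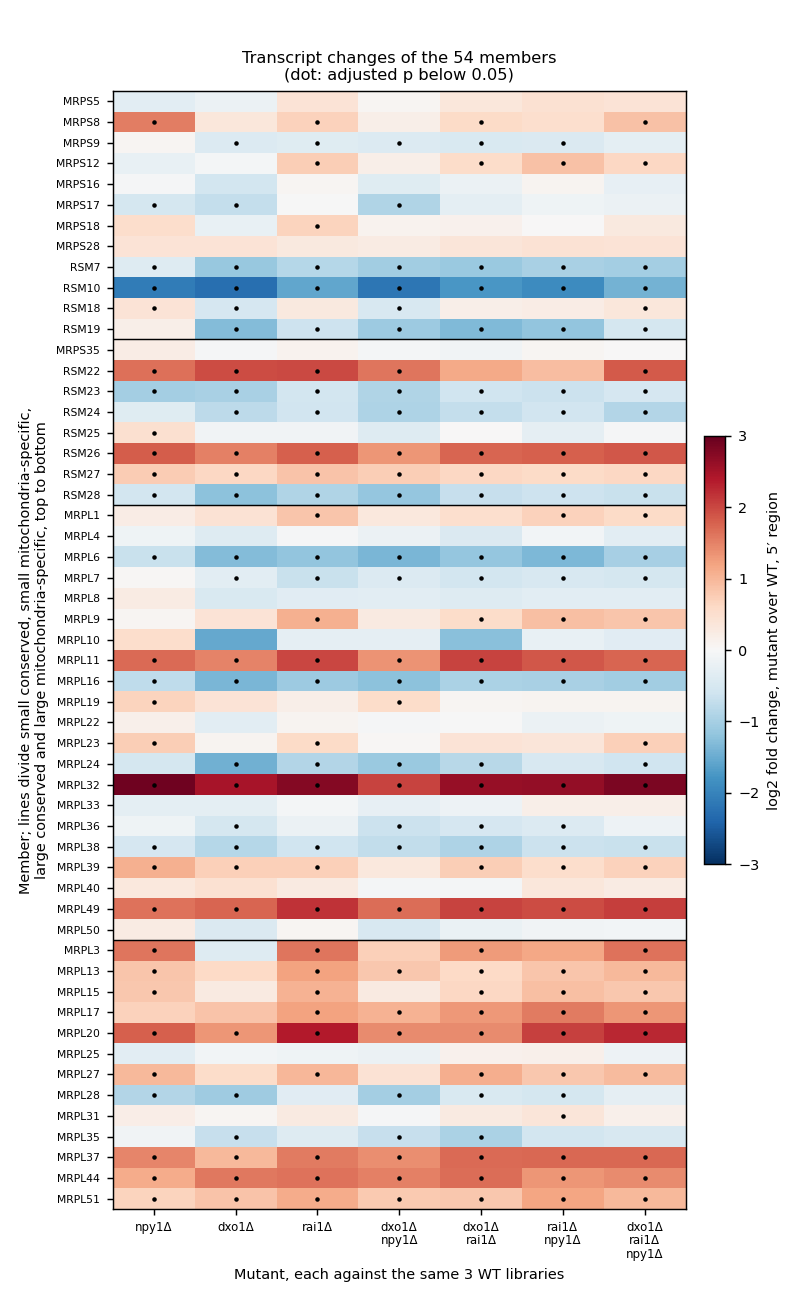
Heat map of the log2 fold change, mutant over WT, of the 54 genes (rows, with lines between the classes) in the 7 mutants (columns), over the 5′ region after TMM scaling; red is higher and blue lower in the mutant, and a dot marks an adjusted p below 0.05. RSM10 is blue in every column, between −2.27 and −1.41, and MRPL32 red, between 2.03 and 2.93; under total-count scaling RSM10 was above 0 in rai1Δ and the triple mutant.

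Of the 54 genes 9 rose in all 7 mutants, beside 28.5% of all RNAs: RSM26, RSM27, MRPL11, MRPL32, MRPL49, MRPL20, MRPL37, MRPL44 and MRPL51. MRPL32, whose protein is processed by a mitochondrial protease in yeast before it enters the ribosome, rose most. It had 6.39, 7.17 and 6.34 RPM in npy1Δ against 0.658, 0.931 and 0.966 in WT (2.93 ± 0.31, adjusted p = 1.1e-07), and 3.24 to 7.17 with a median of 5.66 over the 21 mutant libraries. Every mutant library lay above every WT library, and in the coding sequence its rise was 1.78 to 1.99.
MRPL49, of the L21 family, had 9.96 to 20.3 RPM in the mutants with a median of 14.1, against 3.29, 3.72 and 4.35 in WT (1.63 to 2.17). MRPL20, a mitochondria-specific protein, had 3.91 to 12.1 with a median of 6.33, against 2.19, 2.42 and 1.13 (1.33 to 2.38). MRPL11 had 4.32 to 8.78 with a median of 6.46, against 1.75, 2.23 and 1.77 (1.34 to 2.02). In all 3 genes the mutant and WT libraries stood apart.
RSM26, a small-subunit protein related to superoxide dismutases, had 12.4 to 22.0 RPM in the mutants with a median of 17.5, against 6.14, 5.59 and 4.67 in WT (1.33 to 1.86), and these libraries stood apart as well. RSM22, related to methyltransferases, was close to the detection limit in its 5′ region, at 0.539 to 2.56 RPM against 0, 0.931 and 0.322 in WT. It passed in 5 of the 7 mutants, and in dxo1Δ npy1Δ (1.61 ± 0.64, adjusted p = 0.0219) and in dxo1Δ (1.96 ± 0.63) the call was lost without single libraries: dxo1Δ replicate 1 for dxo1Δ (1.63), and dxo1Δ npy1Δ replicate 1 (1.54) or 2 (1.60) or WT replicate 1 (1.15) or 3 (1.42) for dxo1Δ npy1Δ. In its coding sequence RSM22 rose in all 7, by 1.34 to 1.55.

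In the 5′ region 7 of the 54 genes fell in all 7 mutants, beside 28.5% of all RNAs, and they fell in the coding sequence of each mutant too: RSM7, RSM10, RSM23, RSM28, MRPL6, MRPL16 and MRPL38. RSM10 fell most in the 5′ region. It had 4.18, 4.12 and 3.98 RPM in npy1Δ and 6.81, 7.71 and 5.25 in the triple mutant, against 17.1, 18.1 and 18.0 in WT. Its log2 change was −2.10 ± 0.18 in npy1Δ (adjusted p = 5.7e-09), −2.27 ± 0.21 in dxo1Δ and −1.41 ± 0.17 in the triple mutant (adjusted p = 1.5e-08). In the coding sequence its change lay between −1.08 and −0.58, at 41.9 ± 2.8 RPM per kilobase in npy1Δ against 66.7 ± 3.7 in WT (SD, n = 3 each), while that of RSM28 lay between −1.12 and −0.89.
RSM7 had 15.2 to 31.8 RPM in the mutants with a median of 19.7, against 39.9, 39.7 and 39.8 in WT (−1.13 to −0.39). MRPL6, of the L6 family, had 4.06 to 11.8 with a median of 6.28, against 14.0, 15.6 and 14.8. MRPL16, of the L16 family, had 8.40 to 14.2 with a median of 11.3, against 21.7, 28.5 and 20.3. None of these 3 genes had a mutant library as high as WT.
RSM23, a GTP-binding protein of the small subunit related to human DAP3, had 9.34 to 17.2 RPM in the mutants with a median of 14.1, against 26.3, 22.2 and 20.0 in WT. MRPL38 had 8.91 to 16.1 with a median of 12.7, against 20.6, 25.0 and 16.4, and so its highest mutant library nearly reached the lowest WT library. Under total-count scaling all 7 lay above 0 in rai1Δ and the triple mutant, and in the other mutants all but RSM10 did.
Across the 54 genes, 16 had no overlap between the 21 mutant libraries and the 3 WT libraries, 9 above WT and 7 below it, beside 28.2% and 28.5% of all RNAs. The remaining genes were mixed, 12 passed in no mutant, and RSM18 rose in some mutants and fell in others.

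**Figure D4:**
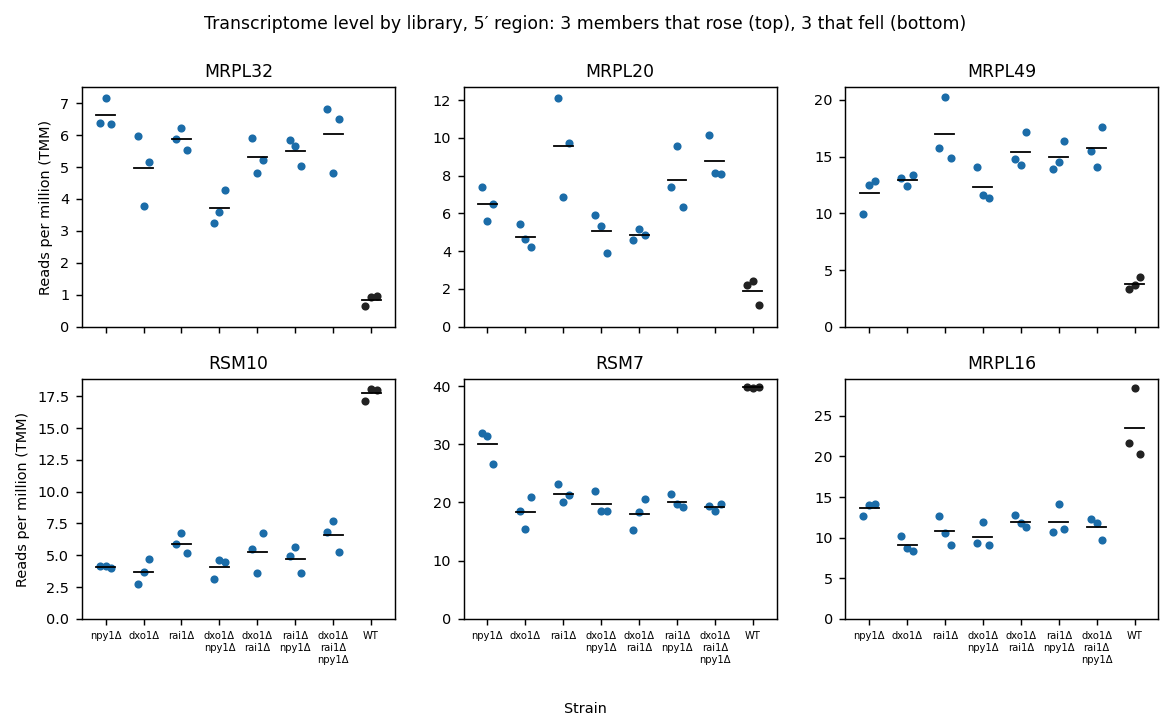
RPM over the 5′ region in every transcriptome library for MRPL32, MRPL20 and MRPL49 (top) and RSM10, RSM7 and MRPL16 (bottom), by strain with mutants left of WT; points are libraries and bars are means. RSM10 lies between 2.73 and 7.71 in the mutants and between 17.1 and 18.1 in WT, and MRPL32 lies between 3.24 and 7.17 in the mutants and between 0.658 and 0.966 in WT.

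The 5′ region and the coding sequence mostly moved together, with a Spearman coefficient of 0.81 to 0.92 over the 54 genes of a comparison (a description over genes from the same libraries). In the coding sequence 25 rose and 18 fell in npy1Δ, and 17 rose and 26 fell in the triple mutant, where 40.7% and 43.4% of all RNAs rose and 39.5% and 41.8% fell. Over the other mutants 16 to 18 members rose and 21 to 25 fell, beside 42.7% and 41.1% of all RNAs in dxo1Δ, 43.4% and 41.5% in rai1Δ, 42.9% and 41.0% in dxo1Δ npy1Δ, 44.0% and 41.2% in dxo1Δ rai1Δ and 42.9% and 40.9% in rai1Δ npy1Δ. Coding sequences that changed made up 80.2% of all RNAs in npy1Δ and 83.8% to 85.2% in the other mutants, with 83.9% in dxo1Δ npy1Δ and 85.0% in rai1Δ. Of 184 pairs of gene and mutant that were called in both regions, 9 had opposite directions, in MRPL1, MRPL17, MRPS12 and MRPS18. MRPS12 had 24.5, 24.3 and 22.7 RPM over its 5′ region in rai1Δ, against 12.5, 15.3 and 15.8 in WT (0.73 ± 0.14, adjusted p = 7.3e-05). Over its coding sequence it had 169, 160 and 164 RPM per kilobase in rai1Δ, against 251, 215 and 248 in WT (−0.56 ± 0.08, adjusted p = 4.4e-05). The groups stood apart in both regions and in opposite directions.
MRPL44 rose in all 7 mutants in the 5′ region, by 1.12 to 1.67, while its coding sequence rose in npy1Δ alone (0.29 ± 0.11, adjusted p = 0.0373) and lay between −0.05 and 0.10 in the other 6. MRPL51 was similar, with a rise of 0.68 to 1.17 in the 5′ region and a called rise of its coding sequence in rai1Δ npy1Δ alone (0.31 ± 0.12). Differences between the regions were not tested, since both are counted from the same libraries.

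**Figure D5:**
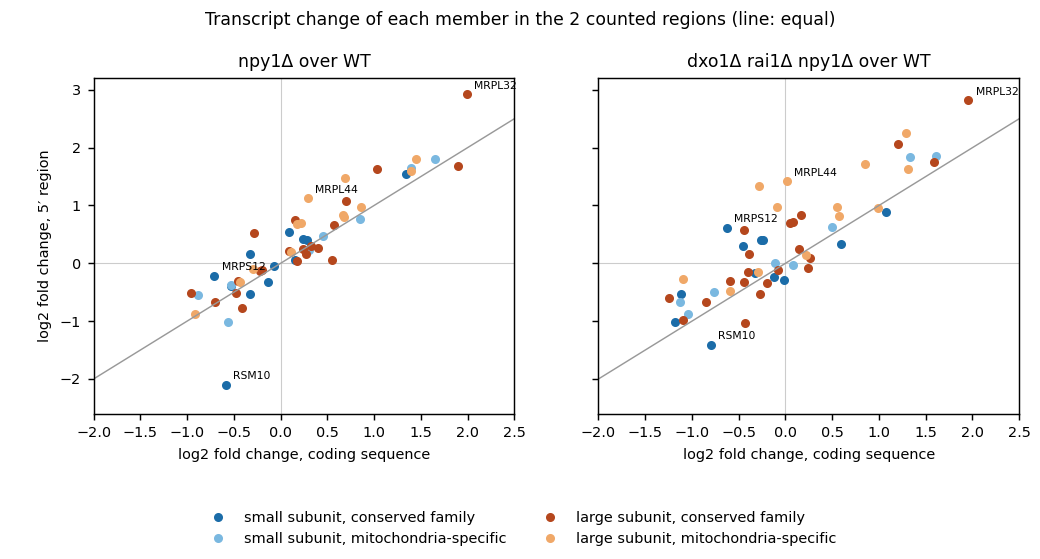
Log2 fold change against WT over the coding sequence (horizontal) and the 5′ region (vertical) for the 54 genes, in npy1Δ and in the triple mutant, with a line where the changes are equal and colours for the classes. RSM10 lies below the diagonal (−2.10 in the 5′ region and −0.58 in the coding sequence in npy1Δ) and MRPL44 above it (1.12 and 0.29).

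Fewer members were called between mutants than against WT. Where NPY1 was removed from a strain that already lacked DXO1 or RAI1, no member passed: dxo1Δ npy1Δ against dxo1Δ and rai1Δ npy1Δ against rai1Δ gave 0 calls each in edgeR, in the 5′ region and in the coding sequence, with 2 genes each at an unadjusted p under 0.05 in the 5′ region. Over all RNAs 0.0289% and 0.0574% were called there in the 5′ region. Set against dxo1Δ rai1Δ, the triple mutant had MRPL20 alone higher, at 10.2, 8.15 and 8.10 RPM in the triple mutant against 4.60, 5.18 and 4.86 in dxo1Δ rai1Δ (0.85 ± 0.18), beside 0.546% of all RNAs that rose.
Where DXO1 was removed from a strain without RAI1, few members passed either. The comparison of dxo1Δ rai1Δ with rai1Δ gave MRPL20 alone, lower at 4.60, 5.18 and 4.86 RPM in dxo1Δ rai1Δ against 12.1, 6.89 and 9.75 in rai1Δ (−0.97 ± 0.20), beside 0.417% of all RNAs that fell. The triple mutant against rai1Δ npy1Δ gave none in edgeR, with 3 genes at an unadjusted p under 0.05 and 0.115% of all RNAs called. The MRPL20 calls were lost without dxo1Δ rai1Δ replicate 1 or 2 in both comparisons, without rai1Δ replicate 3 against rai1Δ and without triple-mutant replicate 1 or 2 against dxo1Δ rai1Δ. Leaving out dxo1Δ rai1Δ replicate 3 gave 2 genes in each comparison.
Where RAI1 was removed from a strain without DXO1, most members were not called and most of the calls were rises. With the triple mutant set against dxo1Δ npy1Δ, 11 of the 54 genes rose and MRPL19 alone fell, where 14.2% of all RNAs rose and 14.4% fell. RSM10 was among those that rose, at 6.81, 7.71 and 5.25 RPM in the triple mutant against 3.10, 4.61 and 4.47 in dxo1Δ npy1Δ (0.72 ± 0.22). MRPL20 (0.80) and MRPL32 (0.75) rose too, and MRPL19, whose upstream window overlaps YNL184C on the same strand, lay at −0.50. Without triple-mutant replicate 1 or 3 the calls numbered 7.
In dxo1Δ rai1Δ against dxo1Δ, MRPS12 (0.58), RSM18 (0.66) and MRPL3 (1.64) rose and none fell, where 8.35% of all RNAs rose and 7.1% fell. Its coding sequences gave 12 that rose and 4 that fell, beside 20.7% and 16.6% of all RNAs. Without dxo1Δ rai1Δ replicate 2 no call was left, without dxo1Δ rai1Δ replicate 3 or dxo1Δ replicate 1 or 2 there was 1, and without dxo1Δ replicate 3 there were 5. RSM18, MRPL3 and MRPL19 are named because the counts were small, after their values were seen.
Against npy1Δ, dxo1Δ npy1Δ had 14 members that fell and none that rose (9 without npy1Δ replicate 2, 8 without dxo1Δ npy1Δ replicate 1), and rai1Δ npy1Δ had 7 that rose and 10 that fell (10 calls without rai1Δ npy1Δ replicate 2, 11 without replicate 3). Over all RNAs 13.4% and 18.3% rose and 14.2% and 18.6% fell. Strain and sequencing run cannot be told apart in both of these comparisons.

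Genes with neighbouring roles changed as well, mostly in both directions. Over all RNAs 35.6% to 40.6% rose and 34.5% to 36.8% fell in a mutant. Of the 23 other nuclear mitochondrial ribosomal protein genes 4 to 7 rose and 6 to 8 fell in a mutant. The largest change was that of MRP13, a mitochondria-specific small-subunit protein, with 6.15 to 15.3 RPM in the mutant libraries against 0.438, 0.372 and 0.322 in WT, from 2 reads in each WT library (4.27 to 5.18 on the log2 scale). Of 8 mitochondrial translation factors 0 to 2 rose and 1 to 4 fell. Of 13 mitochondrial aminoacyl-tRNA synthetases 3 to 5 rose and 0 or 1 fell. VAR1, the ribosomal protein encoded in the mitochondrion, had 0 to 5 reads in a transcriptome library, which is too few for a comparison.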

How the data were processed

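NAD captureSeq and transcriptome libraries of 8 strains, 3 biological replicates each, were analysed as counts. The authors deposited raw counts of reads per RNA, made per the labels with Bowtie and HTSeq; SAMtools 0.1.13 and DESeq2 1.4.5 are also in the submitters' processing notes. For mRNAs the deposited counts cover a window around the translation start, and a second transcriptome table covers coding sequences. Low counts limit the precision of single genes in capture libraries. Deposited tables of the authors' own fold changes and p-values were not used, and fragmented capture libraries were not used here.

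Counts were scaled by TMM and tested with edgeR 4.0.16 (quasi-likelihood F test, R 4.3.3) on all RNAs with a mean above 1, with Benjamini-Hochberg adjustment. The capture-to-transcript test used totals over mRNA 5′ regions as library sizes. Levels are TMM-scaled reads per 1000000 (RPM). Standard errors are the log2 fold change divided by the square root of F. Where the controls had no read, the fold is a lower bound against 3 reads over the group; with 1 to 3 control reads it is the ratio of sums with an exact 95% Clopper-Pearson interval. The fits were tested on simulated data with known changes, set only in genes above a higher mean count and with a fixed spread. That setting does not cover members with few capture reads. Alternatives were DESeq2 1.42.0, other scalings and minimums, coding sequences, a replicate block and leaving out each library.

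The members and gene lists were chosen with earlier results of these data known. Named members were RSM10, the 5 with most +ADPRC reads in WT and in the triple mutant, those enriched in all 8 strains at the adjusted p, the 3 highest and 3 lowest changes per mutant and per npy1Δ test, and the 5 highest and 5 lowest WT coding levels; others are named from counts. Protein sequences were not used here.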

Additional observations from a re-analysis of the deposited data

Results flagged for a closer look

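A difference between npy1Δ and WT passed a test of the difference itself in 5 mitochondrial ribosomal protein genes. In the enrichment test 53 members were tested, many with standard errors too large for any call, and 7.1% of all RNAs were lower and 0.281% higher in npy1Δ. In the capture-to-transcript test 54 members were tested, and 3.67% of all mRNAs were lower and 1.62% higher. These counts do not set the members apart from other RNAs. The enrichment over the −ADPRC controls was lower in npy1Δ for MRPS12 (−7.131 on the log2 scale), with 141 captured and 25 control reads in npy1Δ and 66 captured and 0 control reads in WT. The captured level relative to the transcript level was lower in npy1Δ for MRPL44 (−2.517), MRPL13 (−2.377) and MRPL51 (−1.532) and higher for MRPL31 (3.18). That test held no −ADPRC library. None of these genes passed the enrichment test, where MRPL31 had a standard error of 9199 and could not be called. Of these, MRPL31 was below the threshold without WT +ADPRC replicate 1 (2.50) or without WT transcriptome replicate 2 (3.11), MRPL44 without WT +ADPRC replicate 1 (−1.61) and MRPL51 without WT +ADPRC replicate 1, npy1Δ transcriptome replicate 1 or 2 or WT transcriptome replicate 1 or 2 (−1.53 to −1.33). MRPL13 passed under each of the alternatives run. WT +ADPRC replicate 1 supplied most of the WT captured reads of MRPL13 (53 of 73) and MRPL44 (34 of 40). No other strain was tested in this way, because all others were sequenced apart from WT. In the transcriptome 10 of 10 glucose-repressed genes were lower in npy1Δ than in WT, and their part in these calls was not tested.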

How the results depend on the processing

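Enrichment counts of the 54 genes moved with the minimum, the replicate block and single libraries. With filterByExpr as the minimum the enriched members numbered 16 in npy1Δ, 7 in dxo1Δ, 3 in rai1Δ, 10 in dxo1Δ npy1Δ, 21 in dxo1Δ rai1Δ, 2 in rai1Δ npy1Δ, 18 in the triple mutant and 1 in WT, as fewer genes were tested. DESeq2 gave 7 in WT. Leaving out each library gave 23 to 45 in npy1Δ, 43 to 50 in dxo1Δ, 9 to 45 in rai1Δ, 30 to 46 in dxo1Δ npy1Δ, 39 to 50 in dxo1Δ rai1Δ, 31 to 42 in rai1Δ npy1Δ, 33 to 52 in the triple mutant and 6 to 17 in WT.
Against WT, total-count scaling of the transcriptome gave 53 calls in npy1Δ, 47 in dxo1Δ, 52 in rai1Δ, 51 in dxo1Δ npy1Δ, in dxo1Δ rai1Δ and in rai1Δ npy1Δ and 52 in the triple mutant. Every called fall lay above 0 under it except that of RSM10 in npy1Δ, dxo1Δ, dxo1Δ npy1Δ, dxo1Δ rai1Δ and rai1Δ npy1Δ. Among the members named by rule these were RSM10 in rai1Δ (0.19) and the triple mutant (0.28), RSM23 (0.46) and MRPL28 (0.59) in npy1Δ, MRPL24 (0.17) and MRPL16 (0.25) in dxo1Δ, MRPL16 in rai1Δ (0.64), dxo1Δ npy1Δ (0.46) and the triple mutant (0.65), MRPL6 in rai1Δ (0.56), dxo1Δ npy1Δ (0.32), dxo1Δ rai1Δ (0.44) and rai1Δ npy1Δ (0.37), RSM19 in dxo1Δ rai1Δ (0.28) and rai1Δ npy1Δ (0.53), and RSM7 in the triple mutant (0.67). Leaving out each library gave 24 to 28 calls in npy1Δ, 23 to 29 in dxo1Δ, 31 to 33 in rai1Δ, 27 to 30 in dxo1Δ npy1Δ, 27 to 33 in dxo1Δ rai1Δ, 29 to 30 in rai1Δ npy1Δ and 27 to 33 in the triple mutant.
Among the mutants, total counts gave 5 calls for dxo1Δ npy1Δ against npy1Δ, 5 for dxo1Δ rai1Δ against rai1Δ and 2 for the triple mutant against dxo1Δ rai1Δ. Coding sequences gave 16 for dxo1Δ rai1Δ against dxo1Δ, beside 37.3% of all RNAs. They gave 0 for dxo1Δ rai1Δ against rai1Δ and for the triple mutant against dxo1Δ rai1Δ. Leaving out each library gave 8 to 11 for dxo1Δ npy1Δ against npy1Δ, 0 to 5 for dxo1Δ rai1Δ against dxo1Δ, 0 to 2 against rai1Δ, 10 to 14 for rai1Δ npy1Δ against npy1Δ, 7 to 11 for the triple mutant against dxo1Δ npy1Δ and 0 to 2 against dxo1Δ rai1Δ.
The npy1Δ difference in enrichment left 0 calls with median-ratio scaling, total counts, DESeq2 and the replicate block, and 0 to 1 without each library. The capture-to-transcript test gave 8 in DESeq2 and 2 to 6 without each library. The cause of these moves was not tested.
Replicates of different groups share only a number. In 24 comparisons the correlations of same-numbered deviations ran from −0.101 to 0.127, none had all 3 above 0.1, and in 3 comparisons each library correlated best with its own number. The replicate block gave 22 enriched members in npy1Δ, 14 in rai1Δ, 15 in dxo1Δ npy1Δ, 22 in the triple mutant and 4 in WT, and 2 calls for the triple mutant against dxo1Δ rai1Δ, and it moved no other count of calls by over 1.5 times except the npy1Δ difference above. RSM10 did not pass with the block in npy1Δ (4.17), dxo1Δ npy1Δ (5.80) and the triple mutant (2.63).
Over all named members, 1178 alternative values were computed, of which 1074 kept direction and call, 73 lost the call, 15 gained it and 16 turned round.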
